A study of Rattus norvegicus with 9 samples.

Results

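Serum of rats was examined for 8 mature microRNAs (miRNAs) known from the nervous system. Rotenone, which blocks mitochondrial complex I and is used to model Parkinson's disease, had been injected. The miRNAs are miR-7a-5p and its opposite arm miR-7a-1-3p, miR-9a-5p, miR-124-3p, miR-128-3p, miR-132-3p, miR-138-5p and miR-219a-5p. They were taken by name from the deposited table of read counts, in which all 8 have a row among 567 miRNAs. The animals were male Wistar rats labelled wild type, with 3 serum libraries in each of 3 groups. Early-stage animals (EPD) received 10 days of intraperitoneal rotenone at 2 mg/kg/day, and late-stage animals (LPD) the same daily dose for more than 40 days. The third group was Control. The treatment label and protocol read the same for all 9 samples and speak of rotenone in every group, so what the control animals were given is not known here.

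miRNAs are short RNAs that guide Argonaute proteins to messenger RNAs, chiefly through the seed, bases 2 to 8 from the 5′ end. In serum they circulate in vesicles, lipoproteins and protein complexes, and most come from blood cells, endothelium and liver, so miRNAs of the brain are usually scarce there. miR-7 is made in neurons and is abundant in neuroendocrine tissue, above all in pituitary and pancreatic islets. In serum, fewer releasing cells and less RNA released per cell cannot be told apart.

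The mature sequences show which of these miRNAs share a seed and so could share targets. RefSeq (build GRCr8) gave a sequence for 7 of the 8, written here 5′ to 3′ with the seed in capitals, and miR-124-3p is named only. Each of the 7 has a seed of its own.
miR-7a-5p: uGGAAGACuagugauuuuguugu
miR-7a-1-3p: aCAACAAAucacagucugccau
miR-9a-5p: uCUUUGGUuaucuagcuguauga
miR-128-3p: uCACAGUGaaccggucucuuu
miR-132-3p: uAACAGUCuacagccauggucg
miR-138-5p: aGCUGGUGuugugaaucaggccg
miR-219a-5p: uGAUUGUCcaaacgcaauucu
The next 3 are shown because each shares its seed with a member, miR-7b with miR-7a-5p, miR-3065-5p with miR-7a-1-3p and miR-212-3p with miR-132-3p.
miR-7b: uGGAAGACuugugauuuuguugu
miR-3065-5p: uCAACAAAaucacugaugcu
miR-212-3p: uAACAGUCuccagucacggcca

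miR-7b differs from miR-7a-5p by A10U, counted from the 5′ end with the base of miR-7a-5p first. The table gave miR-7b 3 counts over the 9 libraries and miR-7a-5p 7481, so nearly all counts with this seed stood in the miR-7a-5p row. miR-3065-5p had 101 counts in all. How reads that match both miR-7 rows were assigned is not given in the sources used here. miR-7a-5p is listed by RefSeq at 2 places in GRCr8, at chr17:6278710-6278732 on the plus strand within the gene Hnrnpk and at chr1:142215818-142215840 on the plus strand within a long non-coding gene. miR-128-3p also has 2, at chr13:42251933-42251953 on the plus strand within R3hdm1 and at chr8:120963807-120963827 on the minus strand within Arpp21. Counts of these rows therefore pool copies with identical mature sequence. The positions are RefSeq annotation only, since the counts were made on mRatBN7.2.

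The libraries differed in depth. Totals were 1136537 to 1668807 counts in EPD, 132609 to 305019 in LPD and 1108167 to 1539557 in Control. miRNAs with 1 to 9 counts numbered 127 to 155 in EPD, 3 to 39 in LPD and 150 to 157 in Control. In LPD 1, LPD 2 and LPD 3 the tenth percentile of the counts above 0 was 22, 19.2 and 8. Small values were thus nearly missing from LPD 1 and LPD 2. A count of 0 allows up to 3 counts as a 1-sided 95% limit, and 3.69 by a 2-sided 95% Poisson interval. The 3 counts, used here, stand for 1.88 to 2.31 CPM in EPD, 9.93 to 19.8 CPM in LPD and 1.73 to 3.83 CPM in Control. CPM, counts relative to library size, were computed here from the deposited counts with TMM scaling, and these limits cover counting error only. With small values so rare in LPD 1 and LPD 2, a limit of 3 counts may be too low there. Control 2 stood apart by 4 hepatocyte miRNAs, which together had 696710 CPM there against 29491 and 56364 CPM in Control 1 and Control 3.

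**Figure D1:**
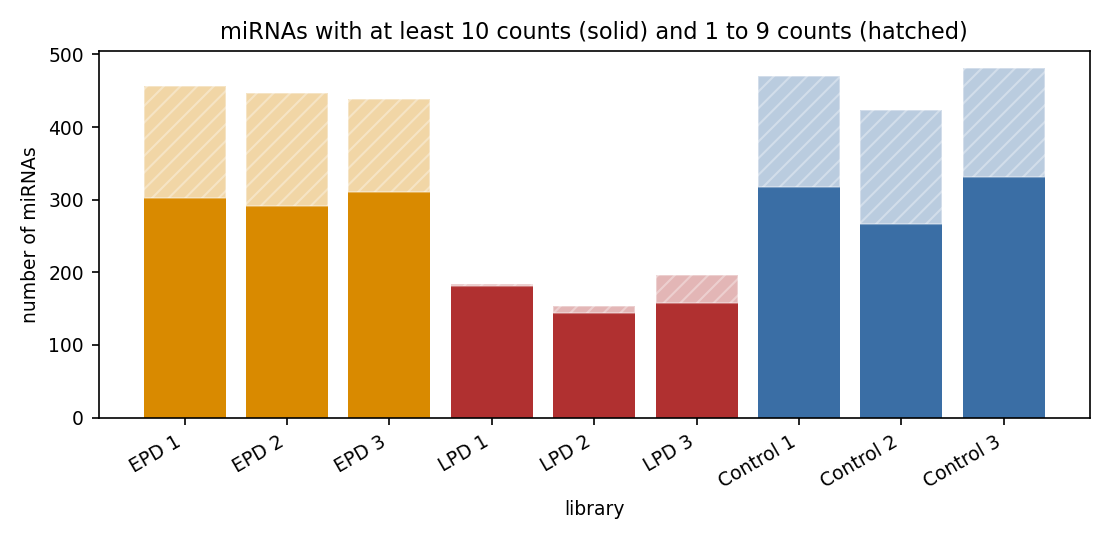
Number of miRNAs, of 567 listed, with at least 10 counts (solid) and with 1 to 9 counts (hatched) in each library, by group. The 3 LPD libraries hold 153 to 197 miRNAs with any count, against 424 to 481 in the Control libraries, and their hatched part is 3, 9 and 39 miRNAs.

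miR-128-3p and miR-7a-5p were counted in all 9 libraries. miR-9a-5p, miR-132-3p, miR-138-5p, miR-219a-5p and miR-7a-1-3p were counted in every EPD and Control library at 6 to 92 counts, and in LPD only miR-9a-5p appeared, in 1 library. miR-124-3p, the miRNA most characteristic of neurons, had 2 counts in EPD 2 and none in the other 8 libraries, and its other arm, miR-124-5p, had 2 counts in Control 1 alone. In all, 7 of the 8 had counts in all 3 EPD libraries, 2 in all 3 LPD libraries and 7 in all 3 Control libraries. The 7 with more than trace counts passed the filter on low counts, as did 294 of the 567 miRNAs, and were tested with edgeR's quasi-likelihood test.

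miR-7a-5p, the main arm of the miR-7a hairpins, was a moderately abundant serum miRNA, ranking between place 66 and place 91 in every library. It had 934, 990 and 706 CPM in the EPD libraries. In the LPD libraries it had 526, 396 and 606 CPM, and in the Control libraries 678, 558 and 1208 CPM. The means were 877 ± 150 CPM in EPD, 509 ± 106 in LPD and 814 ± 346 in Control (SD, n = 3 each). By TMM-scaled CPM, EPD and Control overlapped, LPD and Control overlapped, and every LPD library lay below every EPD library. Of all tested miRNAs, 45.6% lay wholly below EPD in LPD. The order of the libraries under other scalings was not examined.

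None of these differences passed the test. The log2 fold change of miR-7a-5p was 0.11 (SE 0.40, adjusted p = 0.995) in EPD against Control, -0.68 (SE 0.40, adjusted p = 0.229) in LPD against Control and -0.78 (SE 0.40, adjusted p = 0.173) in LPD against EPD. It did not pass in any of the 17 alternatives run for each comparison, where adjusted p in LPD against EPD ranged from 0.125 to 0.357. The log2 fold change in LPD against EPD was -0.51 with DESeq2 size factors and -0.70 with library totals. Control 3 carried the highest value of all libraries: without it the log2 fold change was 0.55 in EPD against Control and -0.32 in LPD against Control. By mean level the order was EPD, Control, LPD, and no 2 neighbours in that order were separated by the test.

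**Figure D2:**
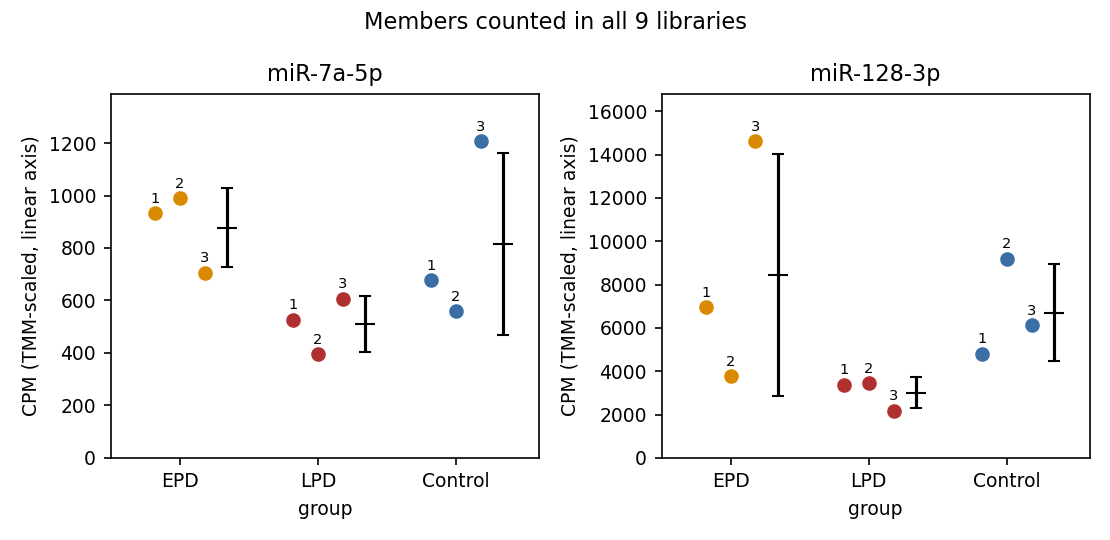
TMM-scaled CPM of miR-7a-5p and miR-128-3p in each library (numbered points, linear axis from 0) by group, with the mean and SD of 3 libraries as black bars. For miR-7a-5p the LPD libraries lie between 396 and 606 CPM and overlap Control; for miR-128-3p EPD 3 stands at 14628 CPM and the LPD libraries lie between 2174 and 3455 CPM, below all others.

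The opposite arm of the first miR-7a hairpin, miR-7a-1-3p, is the arm usually discarded when the duplex is loaded. It had 32, 31 and 31 counts in the EPD libraries. It had no count in any LPD library, and 31, 16 and 54 counts in the Control libraries. Scaled, this was 21.7 ± 2.21 CPM in EPD and 25.6 ± 5.37 CPM in Control (SD, n = 3 each), with a log2 fold change of -0.24 (SE 0.50, adjusted p = 0.995).

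Both arms kept to a narrow ratio where both were seen. Of the counts of miR-7a-5p and miR-7a-1-3p together, the 3p arm made up 2.29, 2.35 and 2.68% in EPD and 3.59, 3.53 and 2.51% in Control. Over these 6 libraries there were 36.6 counts of the 5p arm for 1 of the 3p arm, with a range from 26.9 to 42.7. At that ratio the miR-7a-5p counts of LPD 1, LPD 2 and LPD 3 would go with 4.34, 2.40 and 2.51 counts of miR-7a-1-3p. The observed 0 allows a share of up to 2.36, 4.18 and 4.01% in these libraries (upper Wilson limit, 95%). In LPD 2 and LPD 3 that limit lies above every share measured in EPD and Control, and in LPD 1 it lies within their range. These limits take each library alone. Over the 3 LPD libraries together there were 339 counts of miR-7a-5p and 0 of miR-7a-1-3p, for which no limit was computed. Small counts were nearly missing from LPD 1 and LPD 2, so the limits may be too low there. The 3p arm of the other miR-7a copy, miR-7a-2-3p, had 1 count in EPD 1 and none elsewhere.

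**Figure D3:**
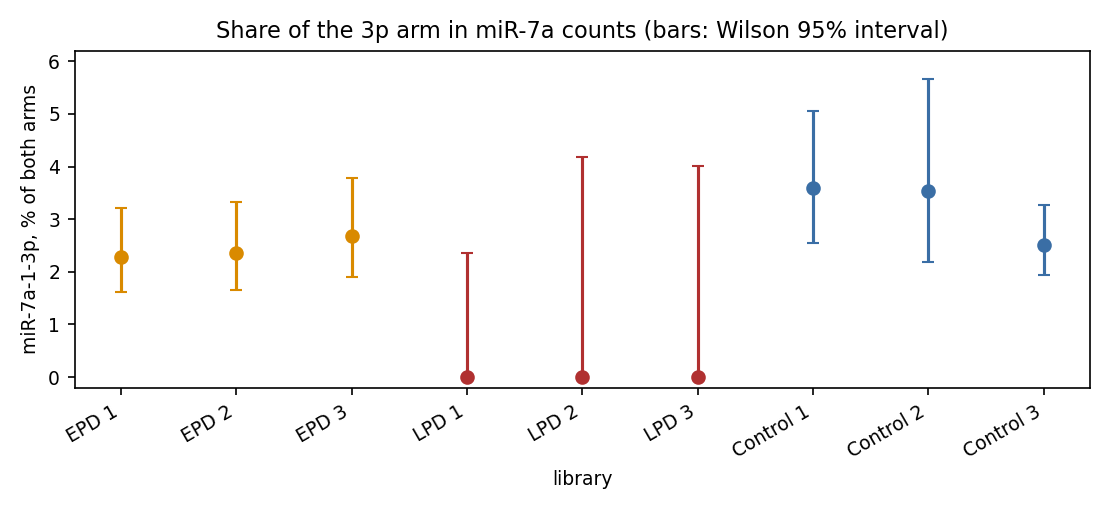
Share of miR-7a-1-3p in the counts of both miR-7a arms in each library, with 95% Wilson intervals that cover counting error only. EPD and Control libraries lie between 2.29 and 3.59%; the LPD libraries are at 0%, with upper limits of 2.36, 4.18 and 4.01%.

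miR-128-3p, enriched in brain, where it restrains neuronal excitability, was the most abundant of the 8, ranking between place 16 and place 47. It had 6945, 3771 and 14628 CPM in the EPD libraries. It had 3386, 3455 and 2174 CPM in the LPD libraries and 4804, 9189 and 6120 CPM in the Control libraries. EPD 3 was the highest, with 3.88 times the level of EPD 2, and every LPD library lay below every EPD and every Control library. Of all tested miRNAs, 45.6% lay wholly below EPD and 41.8% wholly below Control in LPD.

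The means of miR-128-3p were 8448 ± 5582 CPM in EPD, 3005 ± 720 in LPD and 6704 ± 2250 in Control (SD, n = 3 each). In LPD against EPD it fell, with a log2 fold change of -1.49 (SE 0.49, adjusted p = 0.0394). This call held in 5 of 17 alternatives, whose adjusted p ran from 0.0203 to 0.167, and without EPD 3 the log2 fold change was -0.87 (adjusted p = 0.145). Leaving out Control 2, EPD 1, LPD 1, LPD 2 or LPD 3 also ended the call (adjusted p = 0.0647, 0.0949, 0.0994, 0.0720 and 0.136). In LPD against Control the log2 fold change was -1.16 (SE 0.49, adjusted p = 0.0994), and -0.67 without Control 2 (adjusted p = 0.390); it passed without EPD 2 or EPD 3 (adjusted p = 0.0489 and 0.0368), and the cause was not tested. In EPD against Control it was 0.33 (SE 0.48, adjusted p = 0.995), and -0.31 without EPD 3.

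In EPD and, by TMM-scaled CPM, in Control the library highest in miR-128-3p was also the highest in the 4 hepatocyte miRNAs. These summed to 28652, 21030 and 56381 CPM in EPD, with EPD 3 on top, and to 696710 CPM in Control 2. In Control the order of miR-128-3p rested on the scaling. TMM set the size of Control 2 to 783127, below its total of 1171056 counts, which raises every CPM there. Relative to library totals, Control 3 was the highest of the controls in miR-128-3p. In LPD the order was the other way, since LPD 3 was highest in the hepatocyte miRNAs, at 46827 CPM, and lowest in miR-128-3p. Their part in the miR-128-3p values was not tested. The 5′ arms of both miR-128 hairpins were close to absent: miR-128-1-5p had 15 counts and miR-128-2-5p 26 over the EPD and Control libraries, against 62092 of miR-128-3p, and neither had a count in LPD.

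The median log2 fold change of the 124 miRNAs counted in all 9 libraries depended on the scaling. In LPD against Control it was -0.21 with TMM, 0.02 with DESeq2 size factors and -0.05 with library totals. In LPD against EPD these medians were -0.09, 0.17 and -0.01. Under the same 3 scalings miR-128-3p stood at -1.16, -0.86 and -0.95 in LPD against Control and miR-7a-5p at -0.68, -0.43 and -0.61. Both lay below the median of those 124 under each scaling. Over all 294 tested miRNAs, absent ones included, the medians in LPD against Control were -1.04, -0.83 and -0.86, and miR-7a-5p lay above them under each scaling while miR-128-3p lay below.

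miR-9a-5p, of neural progenitors and neurons, had 51, 19 and 10 counts in the EPD libraries. It had 0, 0 and 18 counts in the LPD libraries and 53, 17 and 45 in the Control libraries. Because LPD 3 was the shallowest library, its 18 counts stood for 119 CPM, the highest value of the 9, beside 6.28 to 34.8 CPM in EPD and 21.7 to 43.1 CPM in Control. In LPD 3, 2 other miRNAs had the same count of 18 and 64 of the 197 detected miRNAs had fewer.

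No comparison of miR-9a-5p passed. Its log2 fold change was -0.70 (SE 1.44, adjusted p = 0.995) in EPD against Control, 0.30 (SE 1.5, adjusted p = 0.885) in LPD against Control and 0.998 (SE 1.51, adjusted p = 0.664) in LPD against EPD. The LPD values rested on LPD 3: without it miR-9a-5p had no count in LPD and was called lower, with adjusted p = 0.0233 against Control and 0.0366 against EPD. The other arm, miR-9a-3p, had 53 counts over the EPD and Control libraries, beside 195 of miR-9a-5p, and none in LPD. At that ratio the 18 counts in LPD 3 would go with 4.89 counts of miR-9a-3p.

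miR-132-3p, induced by neuronal activity through the transcription factor CREB, was the lowest of the 5 scarce miRNAs. It had 28, 17 and 6 counts in the EPD libraries and 17, 8 and 12 counts in the Control libraries, with none in LPD. Its means were 12.0 ± 7.74 CPM in EPD and 10.3 ± 3.46 CPM in Control (SD, n = 3 each), with a log2 fold change of 0.22 (SE 0.67, adjusted p = 0.995). miR-212-3p, which has the same seed and neighbours it on chromosome 10, had 30 counts in all, 21 of them in EPD. The other arm, miR-132-5p, had 5, 4 and 6 counts in the EPD libraries, none in LPD, and 3, 0 and 2 in the Control libraries.

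miR-138-5p, which limits the growth of dendritic spines in rat neurons, had 32, 18 and 10 counts in the EPD libraries and 20, 16 and 36 in the Control libraries, with none in LPD. This was 14.0 ± 7.79 CPM in EPD and 19.2 ± 2.50 CPM in Control (SD, n = 3 each). The log2 fold change was -0.45 (SE 0.58, adjusted p = 0.995). The Control libraries were close to each other, at 16.3 to 20.8 CPM, while EPD ran from 6.28 to 21.9 CPM.

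Within EPD, miR-9a-5p, miR-132-3p and miR-138-5p were each highest in EPD 1 and lowest in EPD 3, by 5.55, 5.08 and 3.48 times in CPM. miR-219a-5p had the same order with a smaller spread, at 31.4, 27.7 and 23.2 CPM in EPD 1, EPD 2 and EPD 3. miR-7a-5p and miR-7a-1-3p were also lowest in EPD 3. miR-128-3p was highest in EPD 3. The red cell list, 5 miRNAs in the table, summed to 394670 CPM in EPD 1 and to 163324 and 153124 CPM in EPD 2 and EPD 3, and its part in this spread was not tested. miR-9a-5p, miR-132-3p and miR-138-5p were picked out after their values were seen.

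miR-219a-5p, which promotes the maturation of oligodendrocytes, the myelin-forming cells, had 46, 36 and 37 counts in the EPD libraries and 15, 17 and 92 in the Control libraries, with none in LPD. The EPD libraries were even, at 27.4 ± 4.10 CPM, while Control had 29.0 ± 21.4 CPM (SD, n = 3 each) and its value rested on Control 3, at 53.1 CPM. The log2 fold change was -0.09 (SE 0.68, adjusted p = 0.995), and 0.74 without Control 3. Its partner arm at the other miR-219a gene, miR-219a-1-3p, had 1, 4 and 0 counts in the EPD libraries, none in LPD, and 4, 4 and 7 in the Control libraries.

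**Figure D4:**
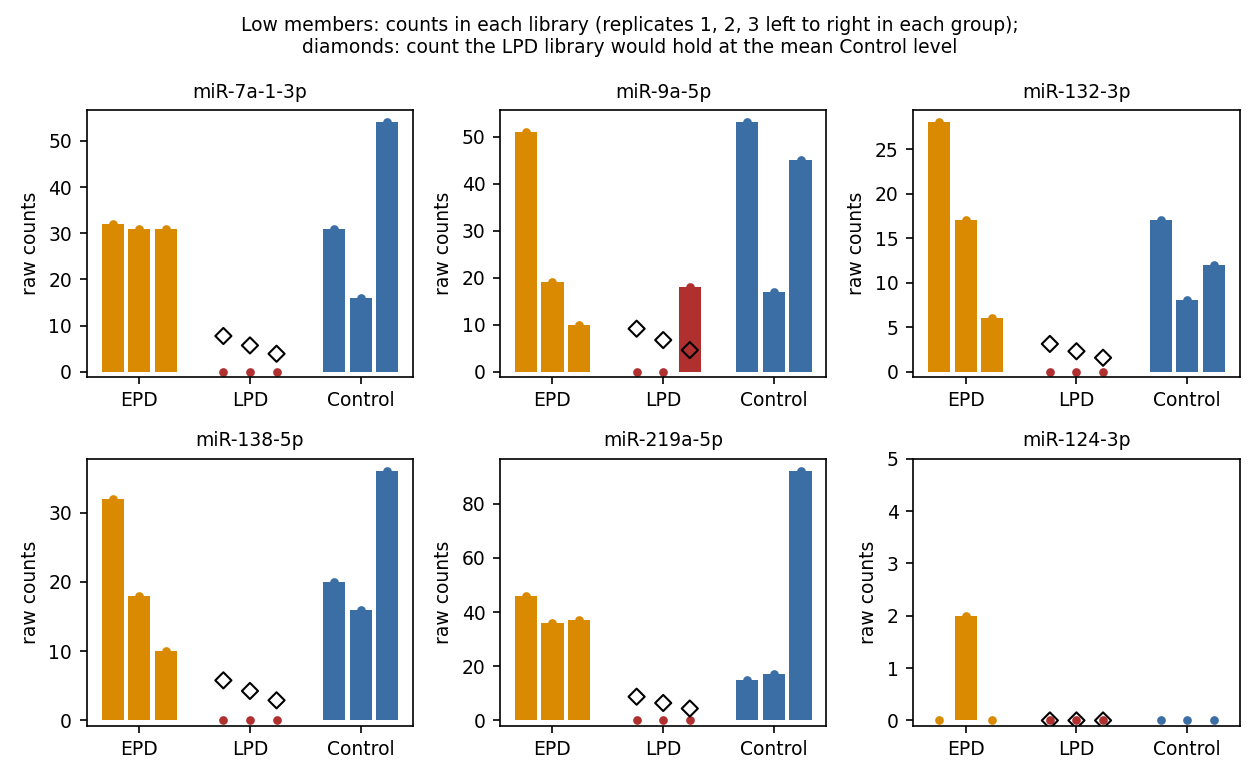
Raw counts of the 6 scarce miRNAs in each library, with replicates 1, 2 and 3 from left to right within a group, and diamonds for the count each LPD library would hold at the mean Control level. In LPD only miR-9a-5p has a bar, of 18 counts in LPD 3, and the diamonds lie between 0 and 9.14 counts.

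After 10 days of rotenone no miRNA of the 8 was called against Control, and neither was any other: 0 of 294 passed (0%), and 11 had an unadjusted p under 0.05 in edgeR. One other tool, limma-voom, also called 0, and DESeq2 called 1, miR-199a-3p, which is none of the 8. The 7 tested miRNAs had a median log2 fold change of -0.09, beside -0.05 for all tested miRNAs, and 3 of the 7 were positive. In none of the 7 were the EPD and Control libraries free of overlap, while 8.16% of all tested miRNAs lay wholly lower and 4.76% wholly higher in EPD. With 3 libraries a group, standard errors of 0.40 to 1.44 on the log2 scale leave wide ranges for these changes.

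In LPD against Control 4 of the 7 tested miRNAs were called lower and 0 higher, beside 32.7% and 4.42% of all tested miRNAs. The 4 were those with no count in LPD: miR-7a-1-3p (adjusted p = 0.00522), miR-138-5p (0.00654), miR-219a-5p (0.00798) and miR-132-3p (0.0205). In LPD against EPD the same 4 were called lower (adjusted p = 0.00576, 0.00926, 0.00852 and 0.0181), and miR-128-3p with them, so 5 of 7 beside 32.7%. The comparisons share the LPD libraries. No miRNA of the 7 was called higher there, beside 4.08%. In either direction 37.1% of all tested miRNAs were called in LPD against Control and 36.7% in LPD against EPD. The 4 absent miRNAs passed the filter through the groups in which they were present, so their count says little beyond that absence.

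The LPD libraries lay wholly below Control for 5 of the 7, all but miR-7a-5p and miR-9a-5p, and wholly above for 0, beside 41.8% and 6.46% of all tested miRNAs. They lay wholly below EPD for 6 of the 7, all but miR-9a-5p, and wholly above for 0, beside 45.6% and 6.80%. For miR-7a-1-3p, miR-132-3p, miR-138-5p and miR-219a-5p this only restates their absence from LPD, since they passed the filter through EPD and Control. Of these 7 miRNAs, among those with a count in LPD, miR-128-3p alone lay wholly below Control, and miR-128-3p and miR-7a-5p wholly below EPD. The shares of all tested miRNAs given here include the 68 with no count in LPD. No share was computed over those with a count. Outside the 7, miR-27b-3p and miR-30d-5p, counted in every LPD library, also lay wholly below both groups.

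No fold is given for the 4, since small counts were nearly missing from LPD 1 and LPD 2. At their mean Control levels the LPD libraries would have held 1.57 to 8.76 counts of each, summing over the 3 libraries to 17.3 for miR-7a-1-3p, 19.6 for miR-219a-5p, 13.0 for miR-138-5p and 6.98 for miR-132-3p. In all 3 LPD libraries these numbers lie below the tenth percentile of the counts above 0, which was 8 in LPD 3. The mean Control level of miR-132-3p, 10.3 CPM, was below the limit of 3 counts in LPD 2 and LPD 3, at 13.5 and 19.8 CPM, and that of miR-138-5p, 19.2 CPM, was below the limit in LPD 3. In those libraries a count of 0 therefore does not exclude a level like that in Control. For miR-132-3p in LPD 1 the count at the mean Control level, 3.12, lies above 3 but below the 2-sided limit of 3.69. In LPD 1 and LPD 2 the limit of 3 counts may itself be too low. A count of 0 there may therefore not exclude such a level for any of the 4.

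Absence from LPD was common among scarce miRNAs. No LPD library held a count for 68 of the 294 tested miRNAs (23.1%). Of the 69 with a mean Control level under 30 CPM, a limit chosen after the values were seen, 42 had none (60.9%), and of the 225 above it 26 had none (11.6%). The 4 absent miRNAs here all belong to the 69, which the placing of the limit decided. It falls between the mean Control levels of miR-219a-5p, 29.0 CPM, and of miR-9a-5p, 30.3 CPM, which had a count in LPD.

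The calls for miR-7a-1-3p and miR-219a-5p were made in all 15 alternatives that kept them in LPD against Control and in all 16 in LPD against EPD. Each of these fits used the same LPD counts of 0 again, so their number adds no separate evidence. The filters that asked for counts in all 9 libraries, or fitted LPD and Control alone, removed them, so these calls rest on keeping miRNAs through the other groups. That for miR-138-5p was lost against EPD without LPD 1 (adjusted p = 0.0525). That for miR-132-3p against Control was lost in 5 of 15 alternatives, among them DESeq2 (adjusted p = 0.0681) and the fits without LPD 1, LPD 2 or LPD 3 (0.105, 0.0793 and 0.0616). Against EPD it was lost in 3 of 15, with DESeq2 and without LPD 1 or LPD 2 (adjusted p = 0.0816 and 0.0620 for these libraries). When only LPD and Control were fitted, none of the 4 passed the filter on low counts and 0 of the 3 remaining miRNAs were called.

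**Figure D5:**
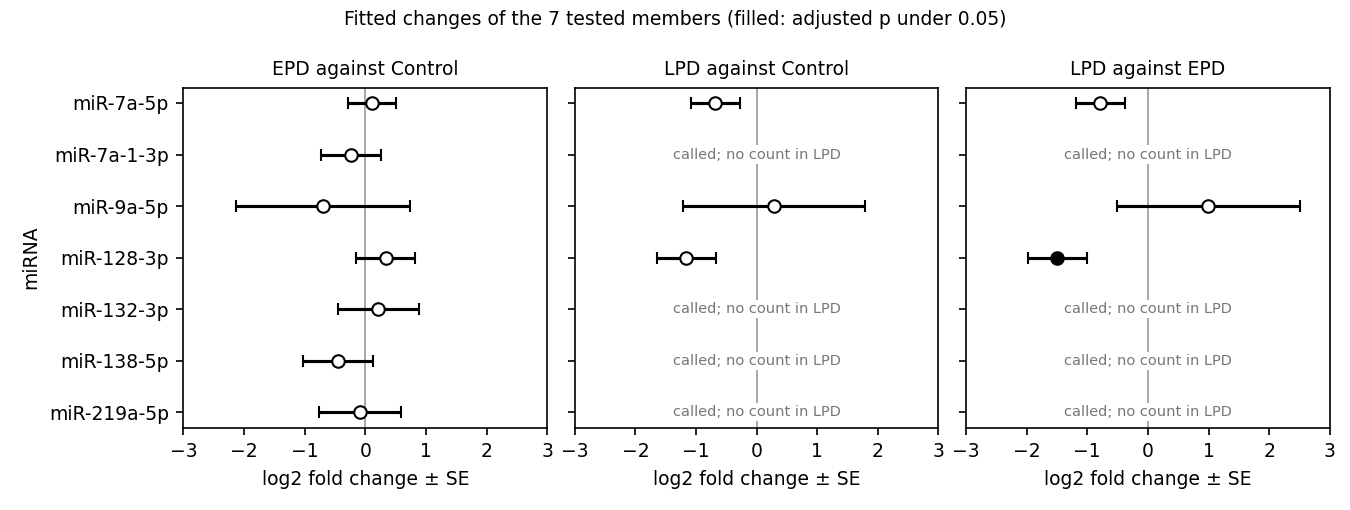
Log2 fold changes with SE from edgeR for the 7 tested miRNAs in EPD against Control, LPD against Control and LPD against EPD; filled points passed at adjusted p 0.05. The 4 miRNAs with no count in LPD are marked in words and carry no fold, and miR-128-3p in LPD against EPD, at -1.49, is the filled point.

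Among further miRNAs enriched in brain, a list of 39 names of which 32 stood in the table, 6 could be tested. In LPD 3 to 6 of the 32 had a count in a library, against 20 to 24 in EPD and 18 to 25 in Control. The list gave 0 calls in EPD against Control and 1 in each LPD comparison, miR-338-3p, another oligodendrocyte miRNA, which was lower, so 1 of 6 beside 32.7% of all tested miRNAs in each. It had no count in LPD and passed the filter through the other groups. It had 13.0, 14.6 and 19.5 CPM in the EPD libraries, none in LPD, and 20.3, 10.2 and 21.3 CPM in the Control libraries (adjusted p = 0.00522 in LPD against Control and 0.00607 in LPD against EPD).

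The 3 most abundant miRNAs of that list by mean over the 9 libraries had counts in at least 2 LPD libraries. miR-328a-3p averaged 1310 CPM in LPD, against 996 in EPD and 653 in Control, a ratio of 2.01 in LPD against Control (SE 0.42 on the log2 scale, adjusted p = 0.1003). miR-326-3p had 3.31, 126 and 178 CPM in the LPD libraries, the first of them 1 count, and a mean of 191 CPM in Control, a log2 difference of -0.92 (SE 1.02, adjusted p = 0.523). miR-218a-5p, known from motor neurons, had 79.4, 0 and 98.8 CPM in the LPD libraries and a mean of 181 CPM in Control, a log2 difference of -1.62 (SE 1.14, adjusted p = 0.314). miR-149-5p, chosen after its values were seen, went furthest the other way among those with a count in LPD, with 0, 0 and 5 counts in the LPD libraries and 484, 38 and 319 in the Control libraries (log2 difference -4.44, SE 1.55, adjusted p = 0.0504). The last tested miRNA of the list, miR-383-5p, also named after its values were seen, had 0, 28 and 7 counts in the LPD libraries. It averaged 57.4 CPM in LPD and 29.4 in Control (log2 difference 0.95, SE 1.35, adjusted p = 0.629). Of the 6 tested, 2 were positive in LPD against Control. miR-153-3p, another neuronal miRNA, had 5 counts in all, 4 in EPD and 1 in Control, and was not tested.

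The miRNAs whose levels over the 9 libraries ran closest to miR-7a-5p were miR-142-5p, let-7i-5p and miR-27b-3p. The measure was the root mean square distance of mean-centred log2 CPM, at 0.31, 0.37 and 0.38, beside a median of 1.38 over the 293 other tested miRNAs. miR-128-3p came 55th from miR-7a-5p, at 0.81. Closest to miR-128-3p were miR-30a-3p, miR-28-3p and miR-30d-5p, at 0.47, 0.49 and 0.51. Of these 6, miR-27b-3p and miR-30d-5p were called lower in both LPD comparisons, beside 32.7% of all tested miRNAs in each, and miR-142-5p, let-7i-5p, miR-30a-3p and miR-28-3p were called in neither. miR-30d-5p had a log2 fold change of -1.32 (SE 0.27, adjusted p = 0.00556) in LPD against Control.

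miRNAs of other sources were present in all 3 groups. The red cell miRNAs, 5 in the table, had a count in every library and summed to 153124 to 394670 CPM in EPD, 235878 to 372674 CPM in LPD and 84539 to 169152 CPM in Control, so the LPD libraries lay above all controls. Of the red cell miRNAs, miR-451-5p averaged 1372 CPM in EPD, 1137 in LPD and 627 in Control, and miR-144-3p 118 CPM in EPD, 418 in LPD and 85.7 in Control. Nearly all of the red cell sums therefore came from the other miRNAs of that list. The 3 lymphocyte miRNAs summed to 22747 to 29820 CPM in EPD, 14219 to 25216 in LPD and 12967 to 19589 in Control. The 3 platelet and myeloid miRNAs summed to 52526 to 72788 CPM in EPD, 59978 to 91552 in LPD and 63891 to 80051 in Control. Pancreas miRNAs had 227 to 281 CPM in EPD, 295 to 625 in LPD and 180 to 327 in Control, nearly all of it miR-375-3p (257 in EPD, 458 in LPD and 242 in Control on average), with miR-216a-5p at 0 in LPD. Muscle miRNAs had 316 to 4930 CPM in EPD, 715 to 10707 in LPD and 1407 to 7629 in Control. By group mean, miR-122-5p of hepatocytes had 22856 CPM in EPD, 22635 in LPD and 243283 in Control, and miR-192-5p had 11161 in EPD, 7160 in LPD and 15387 in Control. miR-223-3p of myeloid cells had 39183 CPM in EPD, 49536 in LPD and 21945 in Control, and miR-126a-3p of platelets and endothelium 11146 in EPD, 14787 in LPD and 10442 in Control. Lymphocyte miR-150-5p had 20295 CPM in EPD, 15665 in LPD and 11991 in Control, and miR-155-5p 971 in EPD, 1254 in LPD and 949.5 in Control. Muscle miR-1-3p had 301 CPM in EPD, 1349 in LPD and 1217 in Control, and miR-133a-3p 139 in EPD, 187 in LPD and 765 in Control. Several of these means rest on 1 library, as the hepatocyte values do on Control 2.

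None of these lists had a miRNA called in EPD against Control. In LPD against Control red cells had 1 of 5 called higher, platelets and myeloid cells 1 of 3 higher and 1 lower, hepatocytes 1 of 4 lower and lymphocytes 1 of 3 lower, and pancreas and muscle had 0, beside 4.42% higher and 32.7% lower of all tested miRNAs. The called hepatocyte miRNA was one with no count in LPD. The part of the red cell miRNAs in the levels of the 8 miRNAs was not tested.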

How the data were processed

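The values deposited by the authors are raw read counts, one row per mature miRNA, in 9 serum libraries; the series table was used, and 0 of its values differed from the single-library files. Per the labels' protocols, a miRNeasy serum kit and a QIAseq miRNA library kit were used. The submitters' processing notes name the build mRatBN7.2; how reads were aligned and counted, and whether molecular identifiers were used, is not given in the sources used here, so reads may repeat molecules.

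Groups came from the titles. No source ties each library to its own animal, so p-values cover only the spread among these samples. Libraries of one group differed beyond counting noise (chi-square over degrees of freedom, lowest 30.7).

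miRNAs passing filterByExpr (10 counts, 15 in total) were scaled by TMM and fitted over all 3 groups with edgeR 4.0.16 (robust quasi-likelihood), with Benjamini-Hochberg adjustment over 294 miRNAs and a threshold of 0.05; the fit was tested on simulated data. Alternatives were DESeq2 1.42.0, limma-voom (limma 3.58.1), other scalings and filters, the replicate number as a block and leaving out libraries. The log2 CPM used for distances had a prior of 2. Members, lists and the rule for named miRNAs (the 8, their other arms, miR-7b and miR-153-3p, brain miRNAs called or among the 3 most abundant, the first 2 of each source list, the 3 nearest patterns) were chosen with earlier results of these data known.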

Additional observations from a re-analysis of the deposited data

How the results depend on the processing

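In EPD against Control no alternative called any of the 8 miRNAs; over all miRNAs 1 (miR-199a-3p) was called with DESeq2 and with only miRNAs counted in all 9 libraries, and 0 to 1 when a library was left out (1 without Control 2); the cause was not tested. In LPD against Control 109 miRNAs were called, against 38 with only those counted in all 9 libraries, 52 with only the 2 groups fitted and 93 to 140 when a library was left out; of the 7 tested miRNAs here 4 were called, against 0 in each of the first 2, where 2 and 3 could be tested, and 3 to 5 when a library was left out. In LPD against EPD 108 were called, against 35, 67 and 90 to 134 in the same settings; of the 7, 5 were called, against 0, 2 and 2 to 5, and 3 with DESeq2. The lowest of these came without LPD 1 (2) and LPD 2 (3).

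Signs turned for changes below their SE. In EPD against Control miR-128-3p ran from -0.31 to 0.73 when a library was left out, miR-132-3p from -0.20 to 0.65 (-0.027 with limma-voom), and miR-219a-5p from -0.41 to 0.74 (0.061 without the filter, 0.19 with limma-voom). For miR-9a-5p LPD against Control stood at -1.92 with limma-voom and between -7.97 and 0.95 when a library was left out, and LPD against EPD at -0.99 and between -7.39 and 1.77; the lowest values are fits without LPD 3, where no LPD count was left, and are not measured folds.

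With the replicate number as a block 101 miRNAs were called in LPD against Control and 101 in LPD against EPD, miR-219a-5p turned to 0.17 in EPD against Control, and miR-9a-5p to -0.69 in LPD against Control and -0.13 in LPD against EPD. Deviations of same-numbered libraries correlated by -0.0959 to 0.0826, and those of other pairs across groups by -0.1 to 0.174. Of the 9 libraries, 5 correlated best with one of their own number. The labels give no pairing, so the numbers were not taken as pairs. With a threshold of 10 counts, 6, 2 and 6 of the 8 miRNAs were found in all 3 libraries of EPD, LPD and Control, in place of 7, 2 and 7. Single libraries moved some group means by 1.5 times or more: miR-128-3p in EPD had 5358 CPM without EPD 3, miR-9a-5p 10.5 in EPD without EPD 1, 0 in LPD without LPD 3 and 59.3 without LPD 1 or LPD 2, and miR-219a-5p 17.0 in Control without Control 3. Depth limits the LPD group most, where 3 counts stand for 9.93 to 19.8 CPM.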

Other observations

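Single libraries held counts of opposite arms without the main arm. miR-138-2-3p, from the second miR-138 hairpin, had 2, 4 and 19 counts in the EPD libraries, 36, 0 and 0 in the LPD libraries and 5, 0 and 9 in the Control libraries. In LPD 1 its 36 counts stood beside 0 of miR-138-5p, and in EPD 3 its 19 counts stood beside 10, whereas in the other EPD and Control libraries miR-138-5p was the higher arm. miR-138-1-3p, from the first hairpin, had 22 counts over the EPD and Control libraries and none in LPD.

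miR-219b is listed at chr3:33516519-33516540 on the plus strand of GRCr8, opposite the minus-strand miR-219a-2-3p at chr3:33516517-33516538. It was named after its values were seen. The sequence is shown with that arm because the 2 lie on opposite strands of 1 site, seeds in capitals.
miR-219b: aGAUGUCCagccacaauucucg
miR-219a-2-3p: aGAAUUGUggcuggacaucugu
miR-219b had 4, 1 and 1 counts in the EPD libraries, 15, 0 and 0 in the LPD libraries and 3, 0 and 6 in the Control libraries. miR-219a-2-3p had 8 counts over the EPD and Control libraries and none in LPD. Both miR-219b and miR-138-2-3p had their highest count in LPD 1. miR-219a-5p and miR-138-5p had none in any LPD library.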
